A study of Mus musculus with 2 samples.

Results

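Cd24a, Uap1l1, Stmn2 and Cytl1 were followed through the cell types of the mesentery in control and Flcn iΔEC mice. The 4 genes, of 28692 in the count tables, were chosen by their symbols for a large difference between both libraries in venous cells, so the venous values below are a description and carry no test. The question here is whether each difference was also found in the other endothelial and in the non-endothelial cells. The series holds 1 library of each genotype, made from CD31+ cells that were bound to magnetic beads from the mesentery of C57BL/6 pups at postnatal day 8, with 3 mice pooled per library. Flcn iΔEC mice carry the endothelial Cdh5-BAC-CreERT2 transgene and Flcn flox/flox alleles. Per the labels, 4-hydroxytamoxifen (40 µg) was injected subcutaneously on postnatal days 2, 3.5, 5 and 6.5 for both libraries. The alleles that the control mice carried are not given in the sources used here. A single library of each genotype allows no test between them, and every interval is a 95% interval of counting error alone.

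Flcn encodes folliculin, which keeps the transcription factors TFE3 and TFEB in the cytoplasm, and these factors bind E-box sequences in genes of lysosomes and metabolism. Veins, arteries, capillaries and lymphatic vessels are lined by endothelial cells of different identity, and Prox1 is the transcription factor that sets lymphatic identity. Cd24a encodes a small, heavily glycosylated surface protein held by a lipid anchor, known from B cell precursors, red cell precursors and epithelia. Uap1l1 encodes a relative of Uap1, the enzyme that makes UDP-N-acetylglucosamine, the sugar donor of many glycans. Stmn2 encodes a stathmin, a protein that binds tubulin and is known from growing neurites. Cytl1 encodes a small secreted protein that was named for its cytokine-like structure and is known from cartilage.

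The control library had 6814 cells and 64639756 unique molecular identifiers (UMIs, one per captured RNA molecule), and the Flcn iΔEC library had 4459 cells and 60805779 UMIs. Both libraries shared 6 cell barcodes, and Scrublet called 2.08% of control and 0.83% of Flcn iΔEC cells doublets, which were kept. Libraries also differed in sex. Xist counts were 9 (control) and 63462 (Flcn iΔEC), those of 4 Y-linked genes 15535 and 17, so that genotype and sex cannot be told apart in any value below. Flcn itself stood at 10.2 CPM (counts of the gene scaled to all UMIs of the class) in control versus 9.76 CPM in Flcn iΔEC endothelial cells, a ratio of 0.959 (0.779 to 1.19), and 3′ counts are no check of an exon removed further upstream. In venous cells alone Flcn had 10 and 40 counts, or 6.87 and 12.4 CPM, a ratio of 1.81 (0.887 to 4.05). Endothelial clusters held 657 control and 1009 Flcn iΔEC cells.

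Cells were named from marker genes and called VEC-like (venous, 72 control and 123 Flcn iΔEC cells), AEC-like (arterial, 55 and 111), capillary-like (24 and 17), LEC-like (lymphatic, 84 and 306) and HEV-like (high endothelial venule, 60 and 74). The VEC-like cells carried all 5 venous markers in both libraries, but their sum was 4117 CPM in control versus 2279 CPM in Flcn iΔEC cells. Capillary markers were higher in them, with a sum of 9795 CPM in the control and 3605 CPM in the Flcn iΔEC library, most of it Fabp4 (7773 and 2120 CPM) and Plvap (1504 and 1316 CPM), with Car4 at 0 in both. The VEC-like class was formed after both libraries were integrated. Without integration the venous class held 62 control cells and 1 Flcn iΔEC cell, so that no VEC-like ratio below could be recomputed that way. The capillary-like cluster had 3 of 6 capillary and also 4 of 9 arterial markers raised, and it is the smallest class. Several clusters could not be named. Among them were a Cxcl12-led cluster with both arterial and capillary markers (133 and 44 cells) and a cluster of 44 Flcn iΔEC cells without any control cell, in which 95.5% had a Prox1 UMI. The latter was led by Hbb-bs, H19 and Mdk and is called the Prox1-positive cluster here. A cluster from a single library may reflect that library.

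On GRCm38, in the GENCODE annotation, Cd24a (ENSMUSG00000047139) lies on the plus strand of chromosome 10 from 43578284 to 43584265, Stmn2 (ENSMUSG00000027500) on the plus strand of chromosome 3 from 8509360 to 8561606 and Cytl1 (ENSMUSG00000062329) on the plus strand of chromosome 5 from 37735519 to 37739820. Uap1l1 (ENSMUSG00000026956) lies on the minus strand of chromosome 2 from 25359889 to 25365682. All are protein-coding, and no other annotated gene overlaps any of them. Of the 98-base words in the transcripts of Cd24a, 0.166% also occur in the gene model Gm6212, and none in those of the other genes are shared with another gene.

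A promoter sequence was at hand for 1 of the 4 genes, Cytl1, shown because, of the named endothelial classes, VEC-like and AEC-like cells alone had 50 counts of it. The RefSeq sequence runs from 250 bases before to 50 bases after the start site (GRCm38.p6, plus strand, chr5:37735269-37735568) and is shown with matches to the E-box letters CANNTG in capitals.
Cytl1 promoter: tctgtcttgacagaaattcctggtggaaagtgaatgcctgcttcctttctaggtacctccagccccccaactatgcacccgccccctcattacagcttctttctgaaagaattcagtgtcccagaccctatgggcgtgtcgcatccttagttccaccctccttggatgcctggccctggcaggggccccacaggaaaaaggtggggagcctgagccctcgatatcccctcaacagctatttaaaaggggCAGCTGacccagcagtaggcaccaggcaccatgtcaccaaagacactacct
It holds 1 such match, which begins 1 base before the start site, and CANNTG is found on either strand in 72.3% of 32851 promoters of the same length. The stricter E-box CACGTG, which is a subset of CANNTG, is found in 7.15% of them and not in this window. These letters describe the window and do not mark a bound site.

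**Figure D1:**
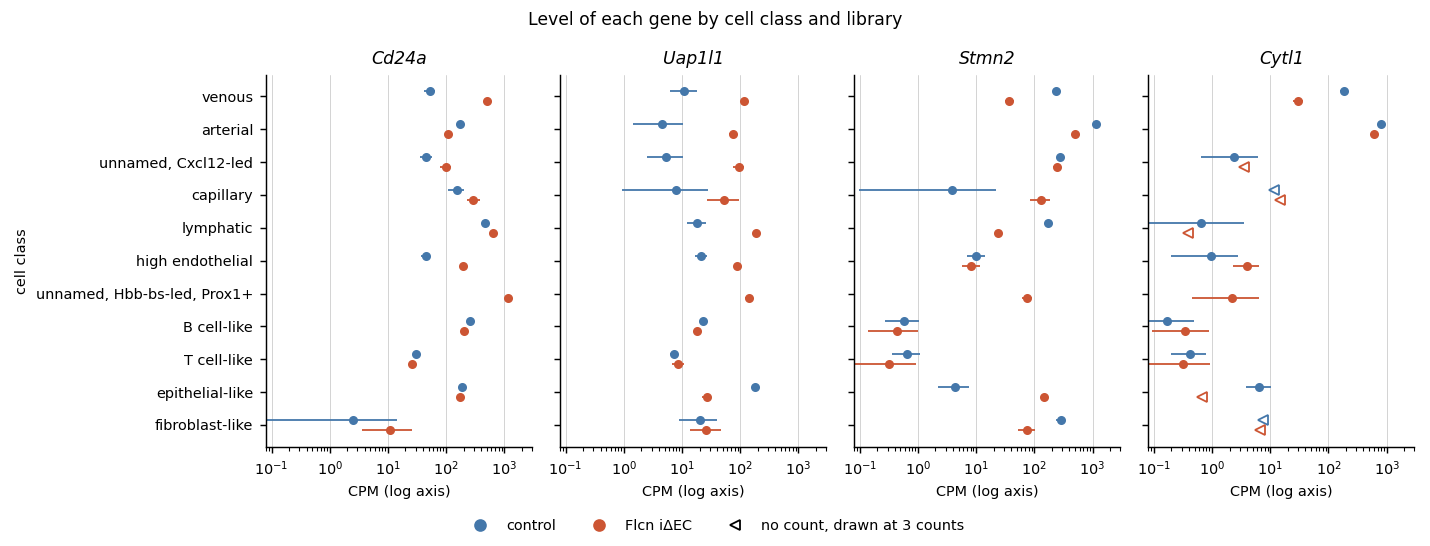
Level of each gene in CPM (log axis) by cell class, with 95% Poisson intervals, in the control (blue) and Flcn iΔEC (red) libraries. Open triangles mark classes without a count, drawn at the level of 3 counts. Uap1l1 was higher in the Flcn iΔEC library in all 6 endothelial rows that hold both libraries, whereas of the rows shown Cytl1 was measured above 10 CPM in venous and arterial (VEC-like and AEC-like) cells alone.

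Uap1l1 differed in the same direction in every endothelial class. In VEC-like cells it had 16 counts in the control library, or 10.99 CPM (6.28 to 17.8), and 373 counts in the Flcn iΔEC library, or 116 CPM (104 to 128). The ratio was 10.5 (6.4 to 18.6). Uap1l1 ranked 11th of 8154 genes with at least 50 summed counts in these cells, of which 3.29% were at least 2-fold higher in the Flcn iΔEC library, a contrast that was used to choose it.

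In AEC-like cells Uap1l1 had 5 counts (4.50 CPM, 1.46 to 10.5) in the control and 205 counts (74.8 CPM, 65.0 to 85.8) in the Flcn iΔEC library. The ratio was 16.6 (7.01 to 51.7), where 2.54% of 7318 genes were at least 2-fold higher. In LEC-like cells it stood at 18.3 CPM (12.3 to 26.3) in control versus 186 CPM (176 to 195) in Flcn iΔEC cells, a ratio of 10.1 (7.02 to 15.2), where 3.64% of 9613 genes were at least 2-fold higher. HEV-like cells, which line the venules that lymphocytes cross in lymph nodes, had 21.2 CPM (16.4 to 26.9) and 89.7 CPM (80.7 to 99.5), a ratio of 4.24 (3.26 to 5.59) against a background of 2.56% of 9397 genes. In capillary-like cells the counts were 2 and 11, too few for the limit of 50. Their ratio was 6.81 (1.49 to 63.3), and 4.16% of 1635 genes there were at least 2-fold higher.

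The size of the Uap1l1 difference did not vary between VEC-like, AEC-like and LEC-like cells beyond counting error. The log2 ratio in VEC-like cells, 3.31, exceeded that in LEC-like cells by 0.02 (-0.85 to 0.89) and lay 0.49 below that in AEC-like cells, a difference of -0.49 (-1.85 to 0.88). It exceeded that in HEV-like cells by 1.25 (0.45 to 2.04). In the Cxcl12-led cluster Uap1l1 stood at 5.41 CPM in control versus 95.2 CPM in Flcn iΔEC cells, a ratio of 17.6 (8.83 to 39.9). In an unnamed cluster of cycling endothelial cells led by Ube2c it stood at 15.6 and 146 CPM, a ratio of 9.35 (6.41 to 14.1). Within the LEC-like class the ratio was 13.3 (7.56 to 25.8) in the Lcn2-led cluster, 8.46 (4.70 to 17.0) in the Slc41a1-led cluster and 5.34 (2.34 to 15.0) in the Lyve1-led cluster.

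Single cells followed the sums. Without thinning, a Uap1l1 UMI was present in 12 of the 72 VEC-like cells of the control (16.7%, 8.92 to 27.3) and in 99 of the 123 of the Flcn iΔEC library (80.5%, 72.4 to 87.1). The cells of the Flcn iΔEC library were deeper, with a median of 19865 against 15416 UMIs. After thinning to 2000 UMIs, which left out 1 control cell, the expected shares were 1.95% and 19.4%. T cell-like cells, taken as a type in which a low level may come from free RNA, had 1.38% and 1.499% after thinning, so the control VEC-like share was near that of T cell-like cells. Of the 123 Flcn iΔEC VEC-like cells, 23 exceeded the highest control cell, and the 5 highest cells held 18.2% of the counts.

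Among control classes the order was HEV-like, LEC-like, VEC-like, capillary-like and AEC-like, and no neighbours in it differed beyond counting error. Some classes further apart did, with HEV-like cells at 1.93 times (1.10 to 3.56) the VEC-like level and AEC-like cells at 0.246 times (0.0742 to 0.642) the LEC-like level. In the Flcn iΔEC library LEC-like cells were highest, 1.61 times (1.43 to 1.80) the VEC-like level, followed by HEV-like and AEC-like cells, whose ratio to each other was 1.20 (1.01 to 1.43), and capillary-like cells, which did not differ from AEC-like cells beyond counting error. The Prox1-positive cluster had 142 CPM (122 to 163), 1.23 times (1.03 to 1.46) the Flcn iΔEC VEC-like level.

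Most non-endothelial classes did not share this difference. Macrophage and dendritic-like cells had a ratio of 2.66 (1.22 to 6.15) on 11 and 20 counts, under the limit of 50. T cell-like cells had 7.26 CPM in control versus 8.57 CPM in Flcn iΔEC cells, a ratio of 1.18 (0.890 to 1.55). B cell-like cells had 23.0 and 18.4 CPM, a ratio of 0.798 (0.673 to 0.944). In an epithelial-like cluster led by Rbp2, Apoa1 and Fabp2, genes of enterocytes, it was lower, at 226 CPM (482 counts, 35 control cells) and 27.1 CPM (114 counts, 72 Flcn iΔEC cells), a ratio of 0.120 (0.0969 to 0.147). All non-endothelial cells together had 23.4 and 16.4 CPM, a ratio of 0.699 (0.631 to 0.774), and without the epithelial-like clusters the ratio was 1.02 (0.902 to 1.15). Among 13688 genes in non-endothelial cells, 2.02% were at least 2-fold lower and 6.37% at least 2-fold higher.

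Cd24a was higher in VEC-like cells of the Flcn iΔEC library but not in all endothelial classes. In VEC-like cells it had 76 counts, or 52.2 CPM (41.1 to 65.3), in the control library and 1600 counts, or 496 CPM (472 to 521), in the Flcn iΔEC library. The ratio was 9.50 (7.55 to 12.1), and Cd24a ranked 16th among the 8154 genes in this contrast, by which it was chosen. HEV-like cells showed the next largest difference of the named classes, with 44.6 CPM (37.5 to 52.5) in control versus 196 CPM (182 to 210) in Flcn iΔEC cells. Their ratio was 4.39 (3.66 to 5.29).

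In AEC-like cells the direction was the opposite. Cd24a stood at 176 CPM (152 to 202) in 55 control cells and 110 CPM (97.5 to 123) in 111 Flcn iΔEC cells, a ratio of 0.624 (0.519 to 0.751), where 2.51% of genes were at least 2-fold lower. The log2 ratio in VEC-like cells exceeded that in AEC-like cells by 3.91 (3.495 to 4.33). When each endothelial cell was instead given to the class with the highest marker level, which placed 142 control and 167 Flcn iΔEC cells among the AEC-like cells, the log2 ratio moved from -0.68 to 0.02. Capillary-like cells had 152 CPM (108 to 207) and 294 CPM (225 to 378), a ratio of 1.94 (1.28 to 2.98), on 39 and 61 counts. This value was not stable, since the log2 ratio of 0.94 ranged from 0.24 to 3.24 over 12 other settings and moved beyond its counting interval in 8 of them. In the Cxcl12-led cluster a control level of 45.7 CPM and a ratio of 2.19 (1.59 to 3.03) were found. Larger ratios were found in other unnamed endothelial clusters, 5.54 (4.66 to 6.63) in the Ube2c-led, 5.05 (3.83 to 6.79) in the Ccl5-led, 5.13 (3.84 to 7.00) in a Marco-led, 12.6 (6.58 to 27.0) in a Fabp7-led and 2.93 (2.19 to 3.94) in an Igkc-led cluster. The Fabp7-led and Igkc-led values rest on few cells. The highest of 11 Flcn iΔEC cells held 69.5% of the counts in the former, and the highest of 9 held 39.9% in the latter.

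LEC-like cells had the highest Cd24a level of the named classes in both libraries, 459 CPM (426 to 494) in control versus 632 CPM (615 to 650) in Flcn iΔEC cells. The ratio of 1.38 (1.27 to 1.49) was an average over clusters that differed. In the Lcn2-led cluster, whose leading genes include Mmrn1, Cd24a stood at 252 CPM in control versus 490 CPM in Flcn iΔEC cells, a ratio of 1.95 (1.69 to 2.24). In the Slc41a1-led cluster, which also had Cldn11 and Aqp8 among its leading genes, it stood at 961 and 924 CPM, a ratio of 0.962 (0.870 to 1.07). In the Lyve1-led cluster, with Reln and Ptx3, it stood at 253 and 159 CPM, a ratio of 0.631 (0.451 to 0.889), on 16 and 25 cells. In control cells the Slc41a1-led cluster had 3.82 times (3.24 to 4.50) the Cd24a level of the Lcn2-led cluster.

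The order of classes changed accordingly. In control cells LEC-like cells were followed by AEC-like and capillary-like cells, which did not differ beyond counting error, and by VEC-like and HEV-like cells, which did not differ either. In the Flcn iΔEC library VEC-like cells came second, with LEC-like cells at 1.27 times (1.21 to 1.35) their level, and AEC-like cells came last. VEC-like cells then had 1.69 times (1.31 to 2.22) the capillary-like level.

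**Figure D2:**
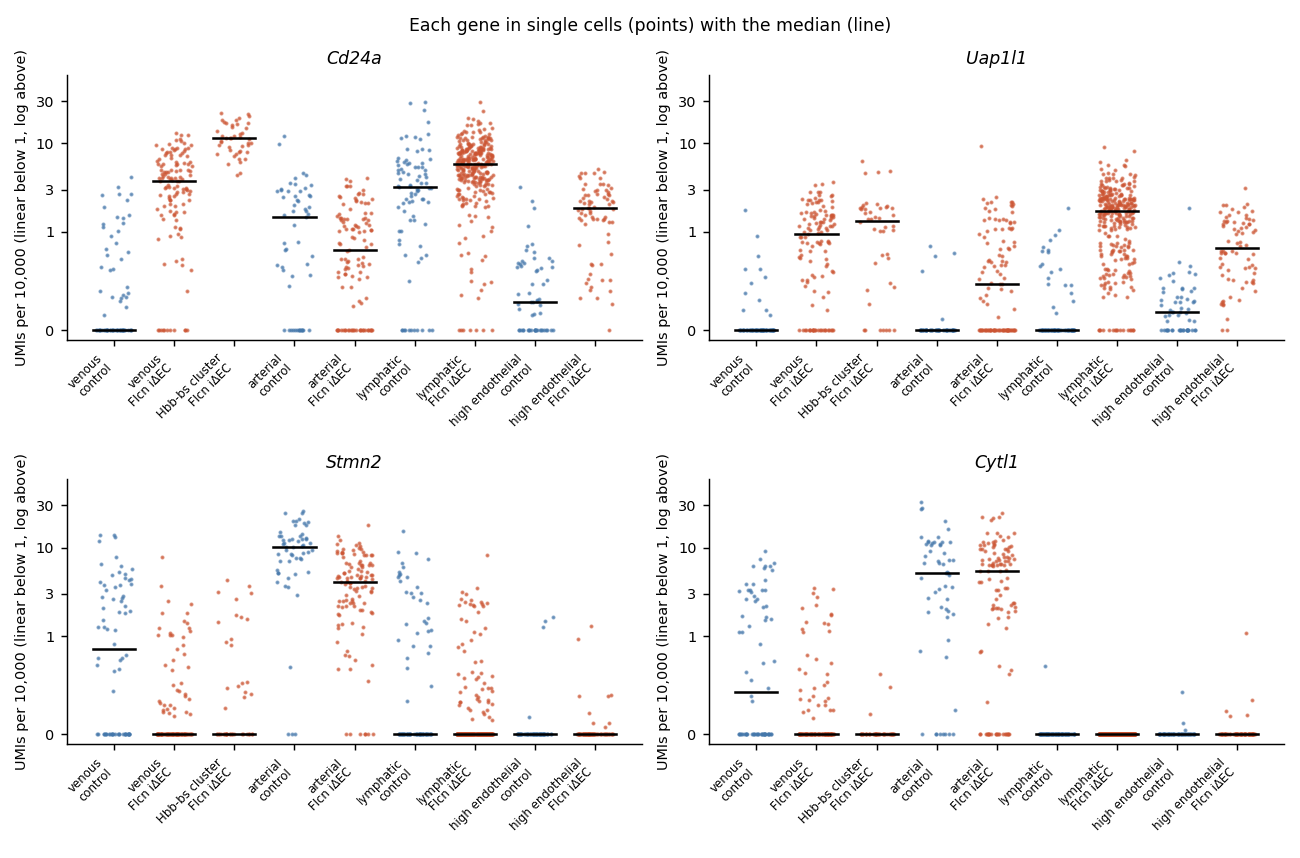
UMIs of each gene per 10,000 UMIs in single cells (points), with the median as a black line, on an axis that is linear below 1 and logarithmic above it, for control (blue) and Flcn iΔEC (red) cells. For Cd24a, 53 of 123 Flcn iΔEC VEC-like cells lay above the highest control VEC-like cell, and the 44 cells of the Prox1-positive (Hbb-bs) cluster had a median of 11.3, with values that overlapped those of VEC-like cells.

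In single cells a Cd24a UMI was present in 33 of 72 control (45.8%, 34.0 to 58.0) and 112 of 123 Flcn iΔEC VEC-like cells (91.1%, 84.6 to 95.5). After thinning, the expected shares were 9.65% and 50.6%, against 5.02% and 4.34% in T cell-like cells. The median was 0 in control and 3.77 UMIs per 10,000 in Flcn iΔEC VEC-like cells, and 53 Flcn iΔEC cells exceeded the highest control value of 4.16. In HEV-like cells the medians were 0.284 and 1.84, and 72 of 74 Flcn iΔEC cells lay above the control median.

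Within the Flcn iΔEC library Cd24a was higher in VEC-like cells with a Prox1 UMI, but those without were also above the control level. In the 52 Flcn iΔEC VEC-like cells without a Prox1 UMI it stood at 324 CPM (286 to 365), and in the 71 with 1 or more at 554 CPM (525 to 584). The corresponding control values were 49.3 CPM (31.9 to 72.7) in 37 cells and 53.8 CPM (40.0 to 70.7) in 35 cells. Cells without a Prox1 UMI were also shallower, with medians of 14804.5 against 33566 UMIs in the Flcn iΔEC library. The Prox1-positive cluster had 1173 CPM (1116 to 1233), 2.37 times (2.21 to 2.54) the Flcn iΔEC VEC-like and 22.5 times (17.9 to 28.7) the control VEC-like level, with a UMI in all 44 cells.

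Markers of other cell types were read in the same VEC-like cells. The 8 lymphatic markers summed to 73.5 CPM in control versus 211 CPM in Flcn iΔEC cells, of which Prox1 alone gave 48.8 and 152 CPM, with Pdpn at 0 in both. The 5 B cell markers, all detected, summed to 21.3 and 14.3 CPM, and the 3 epithelial markers to 98.2 CPM (Krt8 at 0) and 26.7 CPM. The highest single erythroid marker had 20.6 CPM in the control and 36.3 CPM in the Flcn iΔEC library. The part of these cells in the Cd24a difference was not tested. In the cell types known for Cd24a its level moved less. B cell-like cells had 256 and 204 CPM, a ratio of 0.798 (0.758 to 0.838), erythroid-like cells 361 and 260 CPM, a ratio of 0.721 (0.582 to 0.894), and epithelial-like cells 190 and 175 CPM, a ratio of 0.922 (0.825 to 1.03). Neither epithelial-like cluster alone showed a ratio below 1. It was 1.66 (1.41 to 1.97) in the Rbp2-led cluster and 1.12 (0.931 to 1.35) in a Ctrb1-led cluster. The Ctrb1-led cluster had the higher level, 541 and 608 CPM, in 46 control and 6 Flcn iΔEC cells. In all non-endothelial cells Cd24a stood at 140 and 129 CPM, a ratio of 0.924 (0.890 to 0.960).

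In the Flcn iΔEC library Stmn2 was lower in VEC-like, AEC-like and LEC-like cells. In VEC-like cells it had 338 counts, or 232 CPM (208 to 258), in control and 120 counts, or 37.2 CPM (30.8 to 44.5), in Flcn iΔEC cells. The ratio was 0.160 (0.129 to 0.198), a 6.24-fold lower level, and Stmn2 ranked 27th from the bottom of the 8154 genes, of which 4.5% were at least 2-fold lower in the contrast that chose it. In LEC-like cells, whose values the choice did not use, it stood at 171 CPM (151 to 192) and 24.0 CPM (20.7 to 27.6), a ratio of 0.140 (0.116 to 0.170), where 6.73% of genes were at least 2-fold lower. Stmn2 ranked 18th from the bottom of the 9613 genes there. The log2 ratios of VEC-like and LEC-like cells, -2.63 and -2.83, differed by 0.20 (-0.20 to 0.60).

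AEC-like cells had by far the highest Stmn2 level and a smaller difference. It stood at 1171 CPM (1108 to 1237) in control versus 498 CPM (472 to 526) in Flcn iΔEC cells, a ratio of 0.426 (0.394 to 0.460). The log2 ratio of -1.23 fell short of 2-fold without called doublets (-0.94), with 20 dimensions (-0.97) and when cells were classed by marker level alone (-0.88). The VEC-like log2 ratio was lower than that of AEC-like cells by more than counting error, with a difference of -1.40 (-1.72 to -1.08). The control AEC-like level was 5.05 times (4.47 to 5.70) that of VEC-like cells, and in the Flcn iΔEC library 13.4 times (11.1 to 16.3). In the Cxcl12-led cluster, which shares arterial markers, no difference was found beyond counting error, with 274 and 242 CPM and a ratio of 0.882 (0.744 to 1.04).

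HEV-like cells had 10.1 CPM (6.91 to 14.3) in control versus 8.25 CPM (5.68 to 11.6) in Flcn iΔEC cells, a ratio of 0.816 (0.486 to 1.37), where 1.76% of genes were at least 2-fold lower. In capillary-like cells, where 3.24% of genes were at least 2-fold lower, the control library had 1 count. All 27 counts of the Flcn iΔEC library lay in 1 of 17 cells, so no direction is given. All LEC-like clusters were lower, with ratios of 0.106 (0.0798 to 0.139) in the Lcn2-led, 0.142 (0.0995 to 0.202) in the Slc41a1-led and 0.433 (0.277 to 0.676) in the Lyve1-led cluster.

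In single VEC-like cells a Stmn2 UMI was found in 44 of 72 control (61.1%, 48.9 to 72.4) and 42 of 123 Flcn iΔEC cells (34.1%, 25.8 to 43.2). After thinning, the shares were 27.1% and 5.90%, against 0.141% and 0.0755% in T cell-like cells. The level was uneven among cells. The upper quartile of control cells was 3.66 UMIs per 10,000 at a median of 0.864, the median of Flcn iΔEC cells was 0, and 5 control cells exceeded the highest Flcn iΔEC cell. In AEC-like cells the share with a UMI was 94.5% in control and 93.7% in Flcn iΔEC cells, while the medians were 10.2 and 4.12 UMIs per 10,000. In LEC-like cells a UMI was found in 40.5% and 19.3%, and the 5 highest cells held 47.8% of the control counts and 32.1% of the Flcn iΔEC counts.

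In the Prox1-positive cluster Stmn2 stood at 75.3 CPM (61.4 to 91.4), 2.03 times (1.54 to 2.66) the Flcn iΔEC VEC-like level and 0.324 times (0.257 to 0.406) the control VEC-like level. In control VEC-like cells it was 284 CPM (251 to 320) in those with a Prox1 UMI and 136 CPM (106 to 172) in those without. In Flcn iΔEC VEC-like cells it was 39.8 and 29.6 CPM, with intervals that overlapped.

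Stmn2 was near 0 in lymphocytes, at 0.656 and 0.317 CPM in T cell-like and 0.565 and 0.431 CPM in B cell-like cells. Fibroblast-like cells, a cluster that also had Acta2 and Tagln among its leading genes, had 285 CPM in 25 control cells, against 74.4 CPM in 28 Flcn iΔEC cells. These counts lay in 3 control and 2 Flcn iΔEC cells. Over all non-endothelial cells the ratio was 6.87 (5.76 to 8.23), which came from 651 counts in 3 of the 6 Flcn iΔEC cells of an epithelial-like cluster led by Ctrb1 and Clps, genes of pancreatic acinar cells. Without the epithelial-like clusters the ratio was 0.547 (0.385 to 0.766), at 2.96 CPM in control versus 1.62 CPM in Flcn iΔEC cells.

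**Figure D3:**
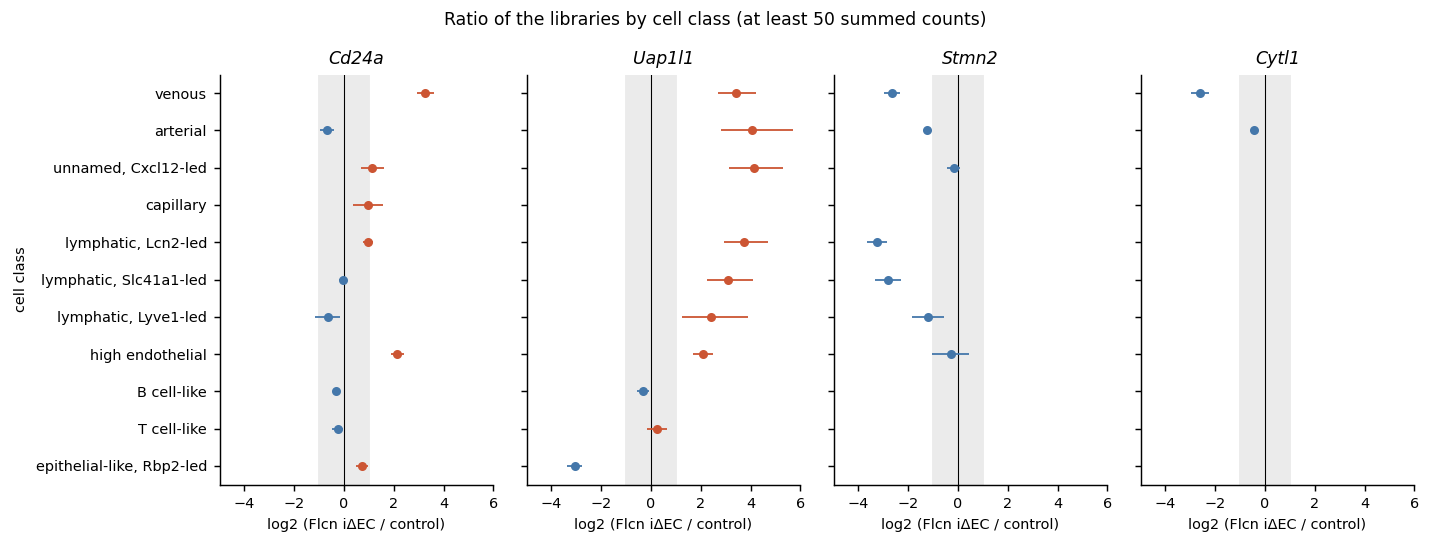
Log2 ratio of the Flcn iΔEC to the control library (no count added) by cell class for genes with at least 50 summed counts, with 95% conditional intervals of counting error. Red points are higher and blue points lower in the Flcn iΔEC library, and the grey band marks less than a 2-fold difference. Of the rows shown, Uap1l1 lay right of the band in every endothelial one, Cd24a lay on both sides of 0, and Stmn2 lay left of the band in all but the Cxcl12-led and high endothelial rows.

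Of the named endothelial classes, Cytl1 was found in VEC-like and AEC-like cells, and its ratio was lower in the former. In VEC-like cells it had 265 counts, or 182 CPM (161 to 205), in control and 96 counts, or 29.8 CPM (24.1 to 36.3), in Flcn iΔEC cells. The ratio was 0.163 (0.128 to 0.207), a 6.12-fold lower level, and Cytl1 ranked 29th from the bottom in the contrast that chose it. In AEC-like cells it stood at 807 CPM (755 to 862) and 598 CPM (569 to 627), a ratio of 0.741 (0.682 to 0.804) that did not reach 2-fold. The log2 ratios differed by -2.17 (-2.52 to -1.81). The AEC-like ratio depended on which cells were counted as arterial. Its log2 value moved from -0.43 to 0.07 without called doublets, to -0.00083 with 20 dimensions and to 0.02 when cells were classed by marker level alone.

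The ratio between both vessel types was wider in the Flcn iΔEC library, going from 4.43 times (3.86 to 5.11) the VEC-like level in control AEC-like cells to 20.1 times (16.3 to 24.9) in the Flcn iΔEC library. In single AEC-like cells the medians were 5.23 and 5.45 UMIs per 10,000, and 85.5% and 81.1% of cells had a UMI. In VEC-like cells a UMI was found in 38 of 72 control (52.8%, 40.6 to 64.7) and 36 of 123 Flcn iΔEC cells (29.3%, 21.4 to 38.1), and after thinning in 22.5% and 5.44%. The share in T cell-like cells after thinning was 0.0894% and 0.0716%. Of the control VEC-like cells, 11 exceeded the highest Flcn iΔEC cell.

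The other named endothelial classes and the non-endothelial cells held almost no Cytl1. LEC-like cells had 1 count in the control library and none in 306 Flcn iΔEC cells, which allows up to 0.378 CPM at the limit of 3 counts. Capillary-like cells had no count in either library, with limits of 11.7 and 14.5 CPM. HEV-like cells had 3 and 16 counts, or 0.948 CPM (0.196 to 2.77) and 4.00 CPM (2.29 to 6.495), with a ratio of 4.22 (1.21 to 22.6) on too few counts for the limit of 50. All non-endothelial cells together had 39 and 13 counts, or 0.768 and 0.387 CPM.

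The Prox1-positive cluster held almost no Cytl1, with 3 counts in 44 cells, or 2.22 CPM (0.457 to 6.47). That is 0.0122 times (0.00250 to 0.0360) the control VEC-like level and 0.0744 times (0.0151 to 0.224) the Flcn iΔEC VEC-like level. Within Flcn iΔEC VEC-like cells, those with a Prox1 UMI had 30.2 CPM (23.7 to 38.0) and those without had 28.3 CPM (17.9 to 42.5), with intervals that overlapped. Arterial markers, 9 in the list with Gja5 at 0 in both libraries, summed to 530 CPM in control versus 330 CPM in Flcn iΔEC VEC-like cells. Their part in the differences of Cytl1 and Stmn2 was not tested. In unnamed endothelial clusters Cytl1 was also lower, at 99.6 and 11.5 CPM in the cycling Ube2c-led cluster, a ratio of 0.116 (0.0773 to 0.168), and at 188 and 13.9 CPM in an Igkc-led cluster with B cell genes, a ratio of 0.0742 (0.0197 to 0.199). In a Ccl5-led cluster with genes of innate lymphocytes it stood at 120 and 82.3 CPM, a ratio of 0.686 (0.548 to 0.860). The Ube2c-led cluster groups cycling cells and is not named by vessel type. Prox1 in it stood at 88.9 CPM in control versus 356 CPM in Flcn iΔEC cells, a ratio of 4.01. The part of its mix of vessel types in the ratios of each gene was not tested.

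**Figure D4:**
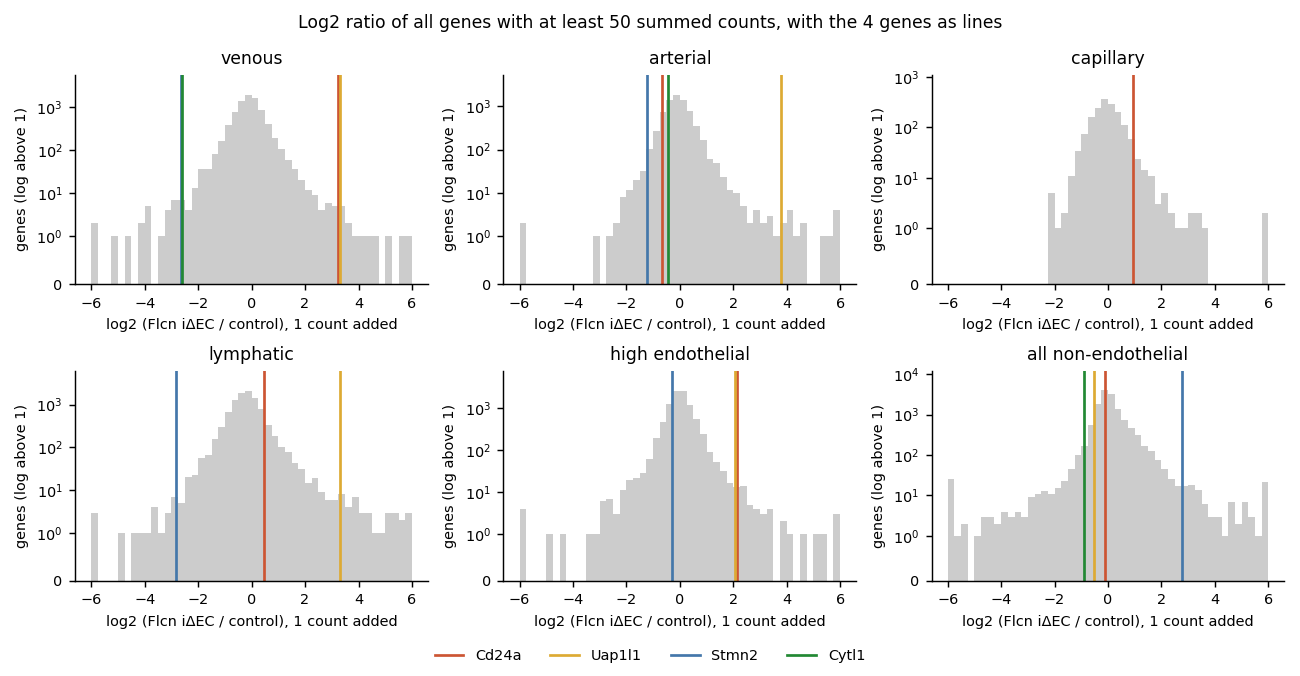
Distribution of log2 ratios (1 count added) over all genes with at least 50 summed counts in each class, with values past 6 in either direction drawn in the end bins, and the 4 genes as coloured lines where they had 50 counts. The vertical axis is logarithmic above 1. In LEC-like cells Uap1l1 and Stmn2 lay in opposite tails while Cd24a lay near the bulk.

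Across the classes whose values the choice did not use, the 4 genes thus differed in how far their venous difference extended. Of the AEC-like, LEC-like and HEV-like cells, where the gene had at least 50 counts, Uap1l1 was at least 2-fold higher in 3 of 3, Cd24a in 1 of 3, Stmn2 was at least 2-fold lower in 2 of 3 and Cytl1 in 0 of 1. In these 3 classes 2.54%, 3.64% and 2.56% of all genes tested were at least 2-fold higher, and 2.51%, 6.73% and 1.76% lower. Capillary-like cells and the unnamed clusters are left out of these counts. For Stmn2 the count of 2 of 3 rests on the AEC-like call that other settings lose, and by marker level alone HEV-like cells passed 2-fold instead, at -1.43. In each unnamed endothelial cluster with both libraries and 50 counts of the gene, Cd24a (ratios of 2.19 to 12.6) and Uap1l1 (4.97 to 17.6) were at least 2-fold higher. The Cd24a ratio of 12.6 is from the Fabp7-led cluster, where the highest of 11 Flcn iΔEC cells held 69.5% of the counts. Cytl1 was at least 2-fold lower in the Ube2c-led (0.116) and Igkc-led (0.0742) but not the Ccl5-led cluster (0.686). Stmn2 was at least 2-fold lower in the Ube2c-led (0.184) but not the Cxcl12-led (0.882) and Ccl5-led (0.745) clusters. The share of all genes past 2-fold was not counted there. Cd24a ranked 112th from the top of 6408 genes in the Cxcl12-led and 56th of 8483 in the Ube2c-led cluster. It ranked 23rd of 7435 in the Ccl5-led and 26th of 5999 in the Marco-led cluster. It was 10th of 1483 in the Fabp7-led and 67th of 2120 in the Igkc-led cluster. Uap1l1 ranked 7th (Cxcl12-led), 33rd (Ube2c-led), 26th (Ccl5-led) and 14th (Marco-led). From the bottom, Cytl1 ranked 22nd (Ube2c-led) and 6th (Igkc-led), and Stmn2 33rd (Ube2c-led). Correlations among the 4 genes across single VEC-like cells were weak in both libraries, with r between -0.213 and 0.353 over 123 or 72 cells that share a library and its depth.

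Genes of the same pathways were counted from lists written with earlier results of these data known. Of 12 genes for the synthesis and use of UDP-N-acetylglucosamine, 10 had at least 50 counts in VEC-like cells, of which 2 were at least 2-fold higher and 2 at least 2-fold lower, beside 3.29% and 4.5% of all genes tested. The median log2 ratio was 0.28, against -0.09 over all genes tested. Renbp, an epimerase that interconverts N-acetylglucosamine and N-acetylmannosamine, had 18.5 CPM in control versus 69.1 CPM in Flcn iΔEC cells, a ratio of 3.73 (2.49 to 5.78). Gnpda1, a deaminase of glucosamine-6-phosphate, had 6.18 and 17.7 CPM, a ratio of 2.86 (1.41 to 6.57). Uap1 itself was lower, with 50.8 and 22.6 CPM and a ratio of 0.445 (0.318 to 0.624), as did Pgm3, the mutase one step earlier, with 22.0 and 10.5 CPM and a ratio of 0.480 (0.287 to 0.803). In LEC-like cells 3 of 11 listed genes were at least 2-fold higher, among them Renbp at 4.43 (3.25 to 6.19), and 1 was at least 2-fold lower, beside 3.64% and 6.73% of all genes. In AEC-like cells 0 of 8 passed 2-fold in either direction, beside 2.54% of all genes higher and 2.51% lower.

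Of 8 other stathmin, growth cone and tubulin genes, 4 had at least 50 counts in VEC-like cells, and the median log2 ratio was -0.89, against -0.09 over all genes. Of these, 1 was at least 2-fold higher and 2 were at least 2-fold lower, beside 3.29% and 4.5% of all genes. Stmn1, the stathmin of dividing cells, was higher at 173 and 368 CPM, a ratio of 2.12 (1.85 to 2.44). Tubb2b, a tubulin subunit, and Map1b, a microtubule-binding protein, were lower, with ratios of 0.436 (0.2499 to 0.759) and 0.446 (0.358 to 0.556). Dpysl3, a growth cone protein, had a ratio of 0.655 (0.512 to 0.840). In LEC-like cells 0 of 5 were at least 2-fold higher and 2 at least 2-fold lower, beside 3.64% and 6.73% of all genes. These were Map1b at 0.356 (0.280 to 0.456) and Gap43, another growth cone protein, at 0.220 (0.180 to 0.268). In AEC-like cells, which had the most Stmn2, 0 of 4 passed 2-fold in either direction, beside 2.54% of all genes higher and 2.51% lower. The median log2 ratio there was 0.009, against -0.10 over all genes. Map1b was higher at 1.28 (1.07 to 1.55), as was Stmn1 at 1.29 (1.07 to 1.57). Gap43 was lower at 0.582 (0.393 to 0.867), and Dpysl3 had 0.811 (0.476 to 1.42). Of 4 partners of CD24, P-selectin (Selp) had 70.0 and 81.5 CPM, a ratio of 1.16 (0.923 to 1.48), and Hmgb1 had 799 and 899 CPM, a ratio of 1.13 (1.05 to 1.21). Siglecg and L1cam had under 50 counts. None of the 4 genes named with Cytl1 (Ccr2, Sox9, Col2a1 and Acan) reached 50 counts in VEC-like cells. In LEC-like cells, which lack Cytl1, Sox9, a transcription factor of cartilage, had 1 count in control and 70 in Flcn iΔEC cells.

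The genes with the most similar profiles were found by Pearson's r of log2(CPM + 5) over 36 groups, 18 classes in each library, among 11290 genes. These groups share their libraries and their cell types, so r is a description. Uap1l1 was closest to Renbp (r = 0.890), Dpp7 (0.827), a peptidase of lysosomes, and Gdf15 (0.822), a secreted member of the TGF-β family. In VEC-like cells Gdf15 stood at 15.1 CPM in control versus 413 CPM in Flcn iΔEC cells. Stmn2 was closest to Fzd4 (0.904), a Wnt receptor, Map1b (0.902) and Lmcd1 (0.901), of which Lmcd1 had 133 CPM in control versus 206 CPM in Flcn iΔEC VEC-like cells. Cytl1 was closest to Scx (0.963), a transcription factor of tendons, Myrip (0.907) and Samd12 (0.895), and Myrip stood at 89.3 and 22.3 CPM in VEC-like cells. Cd24a had no close match, with Ghitm at 0.607, Apobec2 at 0.543 and Slc29a4 at 0.538.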

How the data were processed

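Single-cell 3′ RNA libraries (Chromium, v3) were made from CD31+ mesenteric cells of control and Flcn iΔEC pups, 1 library each. Per the labels and file headers, the authors aligned reads to mm10 and counted UMIs with Cell Ranger 3.0 (3.0.1 in the matrix header), and the deposited values are raw counts per gene and cell without normalization. All deposited cells were kept. Libraries were integrated and clustered in Seurat 5.3.0 (2000 variable features, less those among 32 member and listed genes, 30 dimensions, resolution 0.8), and endothelial clusters were clustered again. Clusters were named from fixed marker lists, with the thresholds for a raised marker set after the clusters were seen. Counts were summed per class and divided by all UMIs of the class (CPM). Intervals are exact Poisson for levels, exact conditional binomial for ratios and Clopper-Pearson for shares, at 95%, and cover counting error only. Log2 ratios had 1 count added to each class sum before scaling, and ratios had none. A gene was counted in a class with at least 50 summed counts, and at least 2-fold is read on the log2 ratio. Shares were also computed as their expectation after thinning each cell to 2000 UMIs. The computation was tested on simulated data. The members and lists were chosen with earlier results of these data known. The genes named are the members, all genes of the lists that a result turns on and the 3 most similar profiles of each member. The summed levels of some marker lists are not reported here.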

Additional observations from a re-analysis of the deposited data

Results flagged for a closer look

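Classes and clusters were read for genes with at least 50 summed counts, leaving out the pools of all endothelial and of all non-endothelial cells. In 11 cases a gene lay in the opposite direction to VEC-like cells with a counting interval that left out 0. The share of all genes with such an interval was not counted, and some of these shifts were small among all genes. Cd24a ranked 2497th from the bottom of 10088 genes in T cell-like cells and 1939th of 9941 in B cell-like cells. The epithelial-like class pools its Rbp2-led and Ctrb1-led clusters, so its cases are not separate from theirs. Its control Uap1l1 counts lay almost all in the former (482 of 491) and its Flcn iΔEC Stmn2 counts in the latter (651 of 652). With 1 library per genotype, none of these differences could be tested between mice. For Cd24a, higher in VEC-like cells of the Flcn iΔEC library, the log2 ratio was -0.68 in AEC-like cells, -0.67 in the Lyve1-led LEC-like cluster, -0.33 in B cell-like cells, -0.47 in erythroid-like cells, -0.73 in proliferating non-endothelial cells and -0.25 in T cell-like cells. For Uap1l1 it was -0.32 in B cell-like cells, -2.74 in epithelial-like cells and -3.05 in their Rbp2-led cluster alone. For Stmn2, lower in VEC-like cells, it was 4.94 in epithelial-like cells and 8.87 in their Ctrb1-led cluster, where 1 of 6 Flcn iΔEC cells held 48.1% of the counts.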

How the results depend on the processing

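With 1 library per genotype no library could be left out, and genotype, sex and library cannot be told apart. No paired analysis was possible because each group holds 1 sample. Values below are log2 ratios unless named otherwise, and the cause of each shift was not tested. Uap1l1 in VEC-like cells ranged from 2.74 to 3.58. In VEC-like cells Cd24a moved to 3.72 at resolution 0.4, to 2.92 at resolution 1.6 and to 3.72 with the Prox1-positive cluster added, Stmn2 to -2.26 at resolution 0.4 and with that cluster and -1.86 with cells classed by marker level, and Cytl1 to -3.06 at resolution 0.4 and with that cluster. At resolution 0.4 the class held 72 control and 167 Flcn iΔEC cells. Each gene had the same counts there as with the Prox1-positive cluster added, so these settings are not separate shifts. Without integration VEC-like cells gave no value, since 62 control cells and 1 Flcn iΔEC cell remained, under the minimum of 10. In AEC-like cells, without called doublets, with 20 dimensions and by marker level, Cd24a was -0.40, -0.41 and 0.024, Stmn2 was -0.94, -0.97 and -0.88, and Cytl1 was 0.068, -0.00083 and 0.019, while the mean over single cells gave -0.28 for Cytl1. Cd24a in capillary-like cells was 1.82 without doublets, 2.44 without integration, 1.78 and 1.62 at resolutions 0.4 and 1.6, 1.92 with 20 dimensions, 3.24 with the members among the clustering features, 2.07 by marker level and 0.24 as a mean over single cells. In LEC-like cells Cd24a was 0.62 after dropping cells under 1000 UMIs or over 10% mitochondrial, 0.65 without integration and 0.67 relative to the median of all genes, and Stmn2 was -2.42 by marker level. Stmn2 in HEV-like cells was -1.43 by marker level. In non-endothelial cells the mean over single cells gave -0.17 for Cd24a, 0.038 for Uap1l1, 1.35 for Stmn2 and -0.012 for Cytl1. Without the epithelial-like clusters, an alternative chosen after seeing the data, Uap1l1 was 0.030 and Cytl1 0.073, and Stmn2 turned from 2.77 to -0.85. With 20 in place of 50 summed counts, 643 genes were at least 2-fold lower in VEC-like cells, 336 higher and 424 lower in AEC-like, 219 and 224 in capillary-like, 1041 lower in LEC-like, 403 higher and 327 lower in HEV-like and 419 lower in non-endothelial cells. Shares of control and Flcn iΔEC VEC-like cells with a UMI without thinning were 45.8% and 91.1% for Cd24a, 16.7% and 80.5% for Uap1l1, 61.1% and 34.1% for Stmn2 and 52.8% and 29.3% for Cytl1. Thinned to 1000 UMIs, Flcn iΔEC shares were 32.0% for Cd24a and 10.3% for Uap1l1.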
